A study of Homo sapiens with 8 samples.

Results

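Cytosolic ribosomal protein genes encode the proteins of the large (RPL), small (RPS) and stalk (RPLP) parts of the ribosome. They were taken by name, as protein-coding rows of the deposited expression table with an RPL, RPS, RPLP or RPSA symbol, leaving out RPS6K kinases and 3 rows whose names end in L1, which gave 80 of 24598 rows. Of these, 45 belonged to the large subunit, 32 to the small subunit and 3 to the stalk. The study asked how celastrol, a plant triterpenoid, acts on gene expression driven by transforming growth factor beta 1 (TGFB1) in CCD-1077Sk, an established fibroblast line from normal human skin. All cells were past passage 8 and were treated for 6 h in serum-containing medium. There were 4 groups of 2 libraries: TGFB1 with 500 nM celastrol, TGFB1 with DMSO (called TGFB1 below), 500 nM celastrol with the BSA and citric acid carrier of TGFB1 (called celastrol), and DMSO with the same carrier (called control). The second celastrol library was grouped by its title, which numbers it 2, while its source label carries the number 3; every value of celastrol against control rests in part on it. The sources used here give no TGFB1 dose, and the cells stand for 1 fibroblast line only. Nothing states that replicate libraries were grown as separate cultures, so each p-value rests on how far libraries of 1 group differ, and that difference may be technical.

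Ribosomal proteins are made in near-equal amounts from many separate genes, and their messenger RNAs are among the most abundant in growing cells. Most of these mRNAs begin with a run of pyrimidines at the cap, the 5′ terminal oligopyrimidine (TOP) tract, through which the kinase MTOR and the RNA-binding protein LARP1 set how strongly they are translated and stored. Control of ribosomal protein output is therefore known to act largely on translation, which RNA levels do not show, while several members have been used as loading references in fibroblast work.

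The transcription start of the members that carry the results below is printed here because the TOP tract lies there. Each window holds 10 bases before and 20 bases from the RefSeq transcription start (GRCh38.p14), 5′ to 3′ on the transcribed strand. Capitals mark matches to 3 short pyrimidine words, namely CTCTT, then CCTTT, and also CTTTC, searched on both strands with overlaps allowed.
RPL36A, chrX:101391001-101391030, plus strand: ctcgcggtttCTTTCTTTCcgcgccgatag
RPS24, chr10:78033853-78033882, plus strand: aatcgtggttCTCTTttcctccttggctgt
RPL9, chr4:39458903-39458932, minus strand: taatgacgacagacgttCTTTCtttgctgc
RPS26, chr12:56041908-56041937, plus strand: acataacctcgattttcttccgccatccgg
RPL24, chr3:101686699-101686728, minus strand: atgattctCTCTTTCttttcgccatctttt
RPL13A, chr19:49487598-49487627, plus strand: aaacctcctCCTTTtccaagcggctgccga
RPS18, chr6:33272065-33272094, plus strand: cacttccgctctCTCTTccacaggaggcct
RPLP0, chr12:120201092-120201121, minus strand: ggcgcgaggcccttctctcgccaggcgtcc
RPS27, chr1:153990752-153990781, plus strand: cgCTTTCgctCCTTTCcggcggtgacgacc
RPS27L, chr15:63157458-63157487, minus strand: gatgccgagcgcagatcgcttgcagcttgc
The first 4 of these genes fell with celastrol, RPL24 rose with TGFB1 on the deposited scale but not with a common total, RPL13A, RPS18 and RPLP0 are common reference genes, and the last 2 are a pair of paralogues. RefSeq windows were found for 63 of the 80 members. One of the words stood on the transcribed strand in 51 of their 78 windows (65.4%), against 9.97% of 35116 windows of all genes, and on the other strand in 2.56% and 7.69%. RPS27 held 2 of the words and RPS27L none. RPS26 and RPLP0 had pyrimidine runs without any of the 3 words, which says only that these letters were not in the window.

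Values are normalized reads: estimated reads per gene, divided by 1 size factor per library, not by gene length. The libraries held an estimated 20716492 to 42518084 reads, and 3 reads in a library corresponded to 1.80 to 4.24 normalized reads. Fold changes are on the log2(normalized reads + 1) scale, and a gene was called when limma's adjusted p over all 22866 genes tested was below 0.05. All 80 members were tested; RPL3L passed the filter on low values only through the libraries with celastrol. The libraries with celastrol stood apart from the others in the number of rows at 0, among other respects. They had 59 to 125 table rows at 0, against 1878 to 2693 rows in the libraries without it. The summed level of 8 fibroblast markers was 364542 to 458273 normalized reads with celastrol and 460763 to 660340 without. The detected markers of endothelial cells (4 rows, 354 to 465 with celastrol against 52.7 to 98.9 without), melanocytes (2 rows, 95.7 to 134 against 8.75 to 14.1), immune cells (3 rows, 354 to 488 against 240.1 to 363) and keratinocytes (2 rows, 11 to 21.7 against 0 to 1.80) were low beside these. KRT5, KRT14, KRT1, CDH5, TYR, DCT and CD3E had no row and were not analysed here. The part of these markers in the results was not tested.

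The members together made up a small and stable share of each library. They summed to 395074 and 430510 normalized reads in TGFB1 with celastrol, 447057 and 482461 in TGFB1, 401803 and 429171 in celastrol, and 408215 and 431784 in control. Both TGFB1 libraries lay above the other 6. As a share of all normalized reads the members took 1.46% and 1.60% in TGFB1 with celastrol, 1.5% and 1.60% in TGFB1, 1.49% and 1.57% in celastrol, and 1.58% and 1.69% in control. On this scale the TGFB1 libraries no longer stood out, and the groups overlapped except that both celastrol libraries lay below both control libraries. Groups of 2 against 2 cannot reach an exact permutation p below 0.05, so no test was made on the sums. In each group the second library was the higher one, by a median of 0.06 to 0.13 on the log2 scale over the members, while the median over all genes tested moved by at most 0.01. In bulk RNA, fewer transcribing cells and less RNA per cell cannot be told apart.

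**Figure D1:**
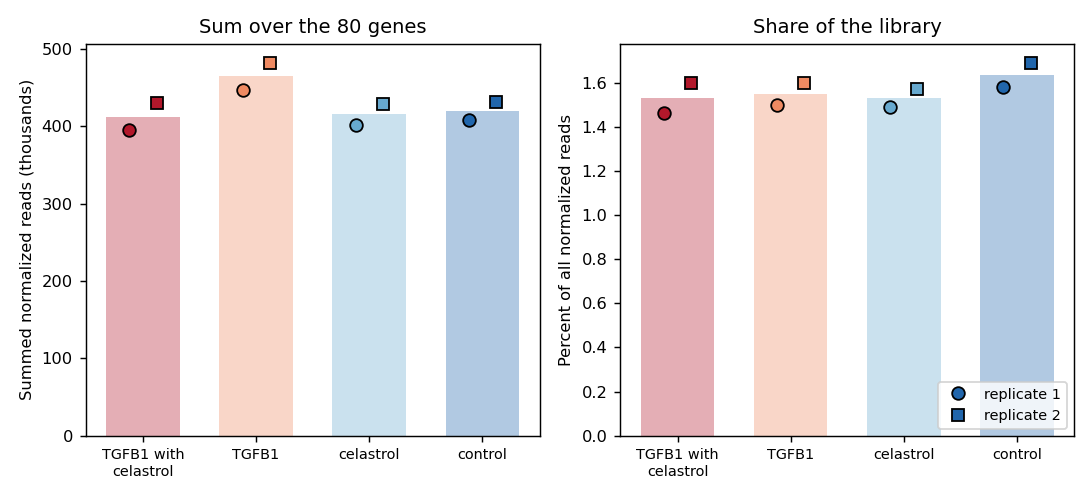
Left, normalized reads summed over the 80 ribosomal protein genes (in units of 1000) and right, their percent of all normalized reads, for the 4 groups, with bars at the mean, circles for replicate 1 and squares for replicate 2. The TGFB1 libraries are highest in the sum (447057 and 482461), but as a share they (1.5% and 1.60%) lie within the range of the others.

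Per kilobase of coding sequence the members spanned a wide range. RPL41, which encodes the shortest ribosomal protein, averaged 84416 normalized reads per kb over the 8 libraries, although its coding sequence of 75 bases is shorter than a usual read, so untranslated bases weigh heavily in this value. The next were RPS20 with 28924, RPL26 with 25853, RPS19 with 24678 and RPLP1 with 24304 per kb. At the other end were RPL3L with 19.4, RPL7 with 216, RPS27 with 407, RPL36A with 551 and RPL39L with 593 per kb. These means pool groups that differ for some genes: RPL36A averaged 165 per kb in TGFB1 with celastrol, 1115 in TGFB1, 157 in celastrol and 765 in control, so in TGFB1 it lay above RPS26 with 861 and RPL39L with 589.8. For RPL7 and RPS26 most reads of the family (98.7% and 61.6%) stood on pseudogene rows, which are taken up further down. Whether reads of RPS27 were lost or placed on other rows was not tested.

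With celastrol, RPL36A fell by a large amount, a few other ribosomal protein genes fell less, and most of the rest changed little. In TGFB1 with celastrol against TGFB1, 28 of 80 members were called lower and 1 higher, where 25.9% and 37.5% of all genes tested were called in these directions. The 1 higher member, here and in celastrol against control, was RPL3L, which could only enter the tests by being higher with celastrol. In celastrol against control, 7 members were called lower and 1 higher, where 21.3% and 33.8% of all genes were. Counting either direction, 63.4% and 55.1% of all genes were called in these contrasts, so the members' shares lay below the background except for falls with TGFB1 present. All 7 were among the 28, and 15 of the 28 were large subunit, 12 small subunit and 1 stalk members. The median log2 fold change of the members was -0.20 in TGFB1 with celastrol against TGFB1 (quartiles -0.26 and -0.13) and -0.03 in celastrol against control (quartiles -0.12 and 0.02), beside 0.12 and 0.08 over all genes tested. Scaling the libraries to a common total gave -0.04 and -0.11, and median centring gave -0.48 and -0.20, so the direction held under these scalings but the size did not. Without the first celastrol library or the second control library, the median in celastrol against control was 0.02 and 0.01, and without the second celastrol library it was -0.11, with 9 members called lower. The members' median lay 0.32 and 0.11 below that of all genes, a gap that a change of scaling hardly moves by construction. Other genes with a mean of at least 1000 normalized reads, 5400 in all, had medians close to those of the members, at -0.17 and -0.06.

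Both celastrol contrasts, which share no library, gave related values for the members. Without RPL3L, the log2 fold changes of 79 members had a Pearson r of 0.94 and a Spearman rho of 0.64, as a description across genes. Leaving out also the 6 members that were lowest gave an r of 0.53 over 73 genes. In 11 members all 4 libraries with celastrol lay below all 4 without it, beside 23% of all genes tested: RPL7, RPL9, RPL22, RPL31, RPL36A, RPL37, RPL37A, RPL38, RPS3A, RPS24 and RPS26. RPL3L alone lay higher in all 4, as 34.4% of all genes did. Both libraries of TGFB1 with celastrol lay below both TGFB1 libraries in 56 members (background 34.8%) and above in 1 (45.9%), and both celastrol libraries lay below both control libraries in 20 (33.8%) and above in 3 (44.5%). Members with a lower mean level had the more negative fold changes, with a Spearman rho between level and fold change of 0.49 in TGFB1 with celastrol against TGFB1 and 0.51 in celastrol against control over 79 members, whose levels and folds come from the same libraries.

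**Figure D2:**
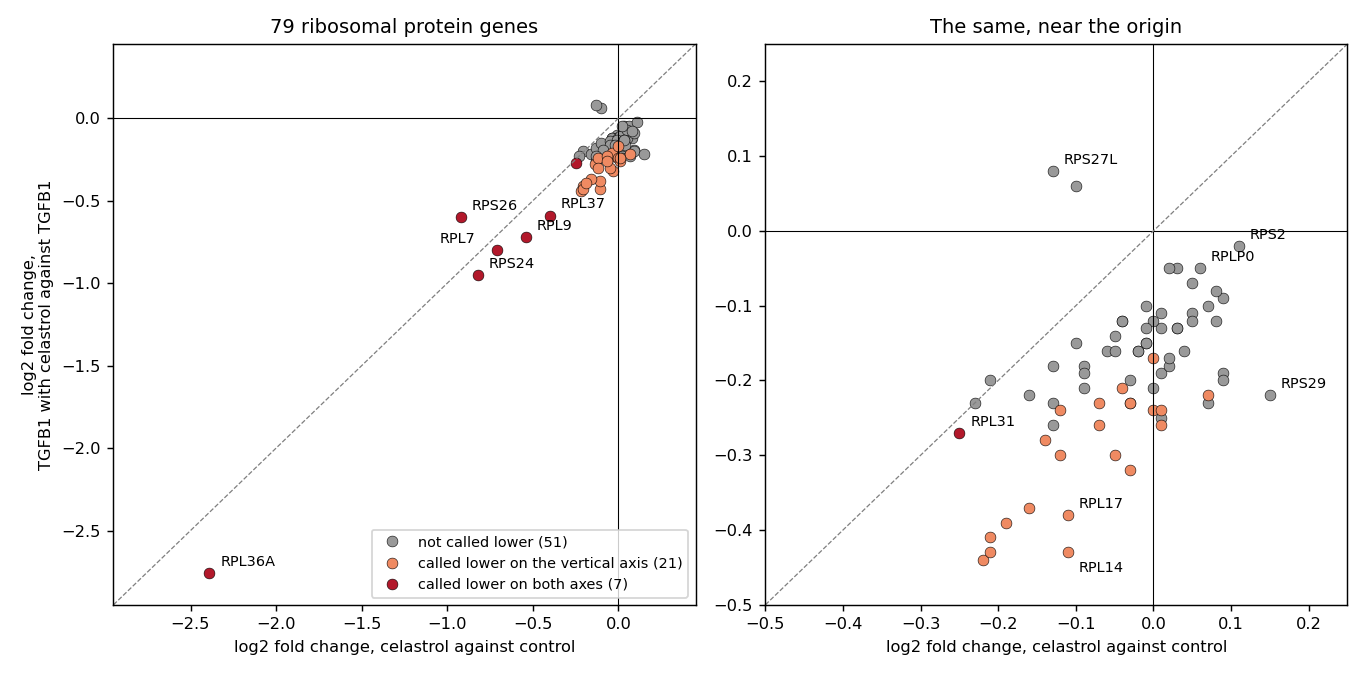
Each point is a ribosomal protein gene, with its log2 fold change in celastrol against control on the horizontal axis and in TGFB1 with celastrol against TGFB1 on the vertical axis, the right panel enlarging the cloud near the origin the dashed line marking equal values, red points the 7 genes called lower on both axes and orange points the 21 called lower on the vertical axis. RPL36A (-2.39 and -2.76) lies far below the cloud, 5 further genes lie nearer to it, and RPL3L (5.51 and 5.01) is off the axes.

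Among large subunit genes the steepest fall was that of RPL36A, an X-linked member (chrX:101390824-101396155, plus strand, hg38) whose TOP window is printed above. It had 40.8 and 64.4 normalized reads in TGFB1 with celastrol, 369 and 340.1 in TGFB1, 29.3 and 70.5 in celastrol, and 227 and 259 in control. Every library with celastrol was far below every library without. RPL36A fell by 2.76 on the log2 scale in TGFB1 with celastrol against TGFB1 (SE 0.37, limma adjusted p = 0.000239) and fell by 2.39 in celastrol against control (SE 0.37, adjusted p = 0.000722). Its autosomal paralogue RPL36AL, from which its reads may not always be told apart, had 565 and 638 normalized reads in TGFB1 with celastrol, 597 and 739.6 in TGFB1, 465 and 504 in celastrol, and 563 and 616 in control, and did not pass either test (log2 fold changes -0.15 and -0.28). The neighbours of RPL36A moved the other way. GLA, the alpha-galactosidase gene that overlaps it on the opposite strand, had 1093 and 1071 in TGFB1 with celastrol, 534 and 527 in TGFB1, 1183 and 1002 in celastrol, and 567 and 576 in control. BTK, a kinase gene known from B cells that lies 27 bases away on the opposite strand, had 405 and 347 in TGFB1 with celastrol, 0 and 3.69 in TGFB1, 431 and 355 in celastrol, and 5 and 0 in control. No source used here says whether the counting used strand, so reads from overlapping genes on opposite strands may not be told apart; 25 members overlap a protein-coding row on the opposite strand. The part of these neighbours in the fall of RPL36A was not tested.

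RPL9 (chr4:39452587-39458931, minus strand), RPL37 (chr5:40825262-40835222, minus strand), RPL7 and RPL31 (chr2:101002229-101024032, plus strand) are the other large subunit genes called lower in both contrasts. RPL9 had 608 and 687 normalized reads in TGFB1 with celastrol, 1089 and 1046 in TGFB1, 616 and 679 in celastrol, and 928 and 949 in control. It fell by 0.72 with TGFB1 present (SE 0.09, limma adjusted p = 0.00011) and by 0.54 without TGFB1 (SE 0.09, adjusted p = 0.000809). The libraries with and without celastrol did not overlap, and both celastrol groups reached much the same level. RPL37, a zinc-binding protein of the large subunit, had 1887 and 1688 in TGFB1 with celastrol, 2716 and 2672 in TGFB1, 1802 and 1819 in celastrol, and 2406 and 2376 in control. It fell by 0.59 (SE 0.06, adjusted p = 6.9e-05) and by 0.40 (SE 0.06, adjusted p = 0.00086). RPL31 had 1580 and 1678 in TGFB1 with celastrol, 2008 and 1916 in TGFB1, 1478 and 1626 in celastrol, and 1763 and 1936 in control. Its log2 fold changes were smaller, -0.27 (SE 0.08, adjusted p = 0.013) and -0.25 (SE 0.08, adjusted p = 0.0199). The call of RPL31 with TGFB1 present ended under 4 of 17 alternatives, among them a common total and leaving out the first library of either group compared. Its call without TGFB1 ended with no trend of variance on mean, and without the first celastrol or the second control library. RPL36A, RPL9 and RPL37 passed in both contrasts under all 17 alternatives. RPL7 is taken up with the pseudogenes below.

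The small subunit genes called lower both with and without TGFB1 were RPS24 and RPS26, which are mutated in some families with Diamond-Blackfan anaemia, an inherited failure of red cell formation. RPS24 (chr10:78033760-78056813, plus strand) had 1718 and 1794 normalized reads in TGFB1 with celastrol, 3318 and 3483 in TGFB1, 1468 and 1817 in celastrol, and 2857 and 2909 in control. RPS24 fell by 0.95 with TGFB1 present (SE 0.09, limma adjusted p = 3.84e-05) and by 0.82 without TGFB1 (SE 0.09, adjusted p = 0.000118). RPS26 (chr12:56041351-56044697, plus strand) had 217 and 178 in TGFB1 with celastrol, 299.7 and 294 in TGFB1, 158 and 144 in celastrol, and 264 and 308 in control. RPS26 fell by 0.60 (SE 0.14, adjusted p = 0.00581) and by 0.92 (SE 0.14, adjusted p = 0.00068). Its fall without TGFB1 was the larger one by value, but the difference of both celastrol effects, 0.32 (95% interval -0.14 to 0.78), did not pass (adjusted p = 0.362). Both genes passed in both contrasts under all 17 alternatives. RPS19, the member most often mutated in that anaemia, had 9462 and 10753 in TGFB1 with celastrol, 10154 and 12073 in TGFB1, 11169 and 10774 in celastrol, and 11055 and 10437 in control, and passed neither test (log2 fold changes -0.13 and 0.03).

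**Figure D3:**
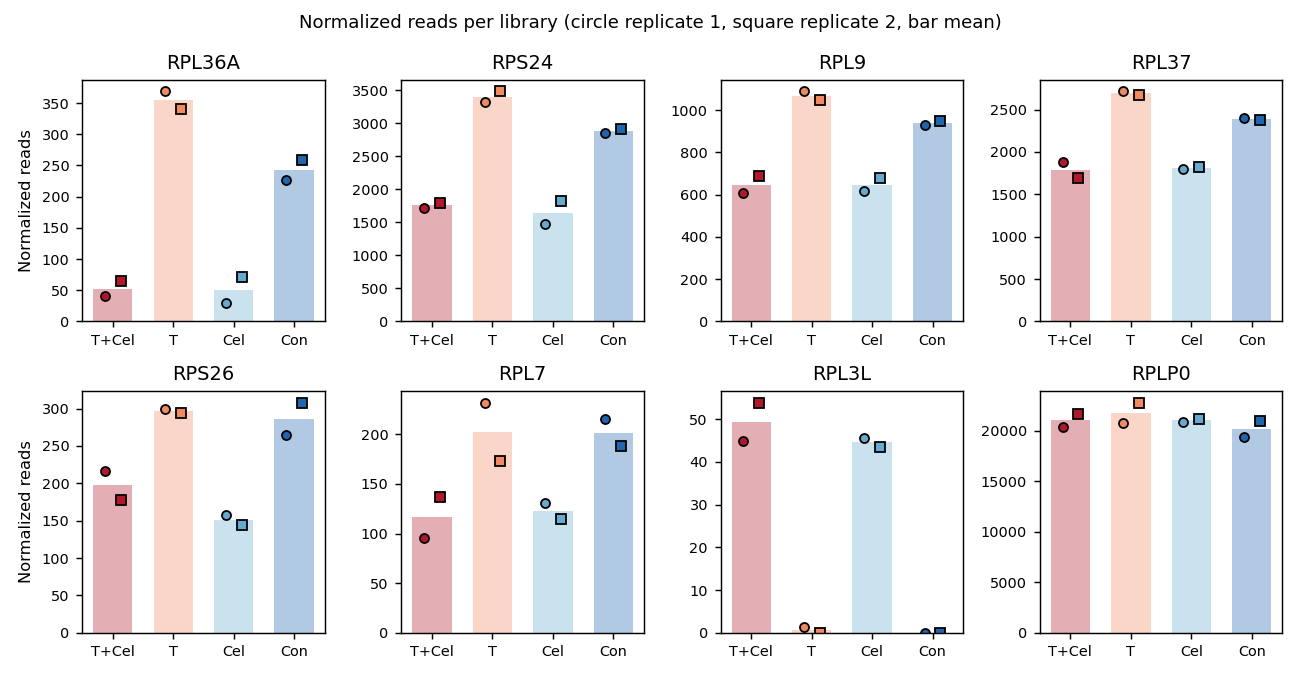
Normalized reads per library of 8 ribosomal protein genes, with circles for replicate 1, squares for replicate 2, bars at the mean, and groups from left to right TGFB1 with celastrol (T+Cel), TGFB1 (T), celastrol (Cel) and control (Con); each panel has its own axis from 0. RPL36A, RPS24, RPL9, RPL37, RPS26 and RPL7 are lower in every library with celastrol, RPL3L is at 0 to 1.41 without it, and RPLP0 stays between 19432 and 22815.

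A further 21 members were called lower in TGFB1 with celastrol against TGFB1 and not in celastrol against control, with log2 fold changes from -0.44 (RPL27) to -0.17 (RPS3). Of the large subunit, RPL14 had 2411 and 2525 normalized reads in TGFB1 with celastrol, 3338 and 3293 in TGFB1, 2291 and 2565 in celastrol, and 2436 and 2795 in control. The TGFB1 libraries stood above the other 6, which overlapped. RPL14 fell by 0.43 with TGFB1 present (SE 0.08, limma adjusted p = 0.00178) against -0.11 without TGFB1 (SE 0.08, adjusted p = 0.303). RPL22, RPL38, RPL17 and RPL27A fell by 0.41, 0.43, 0.38 and 0.37 with TGFB1 present. A call in 1 contrast and not in the other is no difference between them. The interaction, which tests whether the celastrol effect differed with and without TGFB1, called 0 of 80 members in limma. Of all genes, 4.36% were called higher and 6.89% lower (11.3% in either direction). At an unadjusted limma p under 0.05 there were 6 members, beside 5896 of 22866 genes tested. For RPL14 the interaction was -0.32 (95% interval -0.58 to -0.06, adjusted p = 0.121). The median over members was -0.16, which became 0.08 with a common total. With a replicate block the interaction called 4 members lower, a count given without its share over all genes. RPL22, RPL38, RPL17, RPL27A and RPL14 passed with TGFB1 present under all 17 alternatives. Without the first library of TGFB1 with celastrol, 13 members in place of 28 were called lower in TGFB1 with celastrol against TGFB1.

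TGFB1 alone went with slightly higher ribosomal protein RNA on the deposited scale. In TGFB1 against control, 7 of 80 members were called higher and 0 lower, beside 12.8% and 10.6% of all genes tested (23.5% in either direction). At an unadjusted limma p under 0.05 there were 23 of 80 members, beside 8117 of 22866 genes tested. The 7 called members included RPL14, RPL24, RPL27A and RPL17 of the large and RPS25 and RPS23 of the small subunit, with log2 fold changes from 0.24 to 0.35. RPL24, which forms a bridge between the subunits, had 4409 and 4378 normalized reads in TGFB1 and 3327 and 3683 in control (0.33, SE 0.09, limma adjusted p = 0.0257). RPS25, which some viral RNAs need to start translation, had 987 and 917 in TGFB1 and 750.2 and 793 in control (0.30, adjusted p = 0.0313). Of these 7, 5 were called lower when celastrol was added to TGFB1; both contrasts use the same TGFB1 libraries, so their opposite signs are not independent.

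The direction of the TGFB1 difference depended on the scaling. The members' median was 0.16 as deposited (quartiles 0.11 and 0.22) and 0.28 with median centring but -0.07 with a common total, beside 0.00, 0.12 and -0.21 over all genes tested. With a common total 0 members were called higher and RPS27L was called lower, beside 1417 and 5399 of all 22866 genes tested. Both TGFB1 libraries lay above both control libraries in 52 members and below in 0, where 29.2% and 28.4% of all genes did so. Over the 4 pairs of 1 TGFB1 and 1 control library the median difference of the members ran from 0.07 to 0.25. The median gap within the groups was 0.06 between the TGFB1 libraries and 0.09 between the control libraries, the second of which is larger than the smallest of the 4 differences. The number called higher was 1 without the first control library, 2 without the second TGFB1 library, and 4 without the second control library or either library of TGFB1 with celastrol. A fit to the 4 libraries compared called 1. The other genes with a mean of at least 1000 had a median of 0.12, near that of the members.

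No ribosomal protein gene was called between the celastrol groups. In TGFB1 with celastrol against celastrol limma called 0 of 80 members, and 1 gene of all 22866 tested in each direction (0.00437% each, 0.00875% together). At an unadjusted limma p under 0.05 there were 2 members, beside 868 of the 22866 genes. The members' log2 fold changes ran from -0.23 to 0.38 with a median of 0.00, and for 72 of 80 the 95% interval lay within 0.5 on either side of 0. The highest was RPS26 (217 and 178 in TGFB1 with celastrol, 158 and 144 in celastrol) and the lowest RPL39 (3371 and 3117 in TGFB1 with celastrol, 3705 and 3884 in celastrol).

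Several members serve as reference genes in quantitative PCR, and their values show how far each row moved here on the deposited scale. RPLP0, the scaffold of the stalk, had 20394 and 21703 normalized reads in TGFB1 with celastrol, 20829 and 22815 in TGFB1, 20926 and 21238 in celastrol, and 19432 and 20964 in control. Its groups overlapped, and its log2 fold changes were -0.05 in TGFB1 with celastrol against TGFB1 (95% interval -0.21 to 0.11), 0.11 in TGFB1 against control (-0.05 to 0.27) and 0.06 in celastrol against control (-0.10 to 0.22). RPL13A, the large subunit protein that also joins an interferon-induced silencing complex, had 8338 and 7750 in TGFB1 with celastrol, 8070 and 9154 in TGFB1, 7815 and 8949 in celastrol, and 7767 and 8224 in control, with fold changes of -0.10, 0.10 and 0.07 in the same contrasts. RPS18 had -0.16, 0.12 and -0.05, RPL32 -0.13, 0.20 and 0.01, and RPL19 -0.15, 0.22 and -0.01, and none of the 5 was called in any of these contrasts. The highest of the 8 libraries exceeded the lowest by a factor of 1.17 for RPLP0 and 1.18 for RPL13A, the narrowest of the members after RPS20, RPL15 and RPLP1. For 68 of 80 members (85.0%) this factor was below 1.5, against 53.6% of the other genes with a mean of at least 1000. In TGFB1 against control the 3 stalk genes, RPLP0 among them, ran from 0.11 to 0.21 as deposited. With a common total they ran from -0.12 to -0.01. Pseudogene rows held 51.1% of the family's reads for RPL13A and 24.7% for RPLP0. Summed with these rows, RPL13A had fold changes of -0.07, 0.07 and 0.09, and RPLP0 -0.04, 0.09 and 0.07, in the same contrasts.

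The stalk, which recruits the elongation factors, holds RPLP0 with RPLP1 and RPLP2. RPLP2 had 3736 and 4246 normalized reads in TGFB1 with celastrol, 4484 and 4828 in TGFB1, 4068 and 4335 in celastrol, and 3890 and 4140 in control. It fell by 0.22 in TGFB1 with celastrol against TGFB1 (SE 0.08, limma adjusted p = 0.0312) against 0.07 in celastrol against control. The call ended with a common total, with no trend of variance on mean and with only the compared libraries. It also ended without the first library of TGFB1 with celastrol or the second TGFB1 library. RPLP1 was not called (-0.16, adjusted p = 0.0769). Both members that bind the p53 inhibitor MDM2 together with 5S ribosomal RNA gave similar values: RPL5 fell by 0.21 (SE 0.06, adjusted p = 0.0127) with 6444 and 7058 in TGFB1 with celastrol and 7760 and 7881 in TGFB1, and RPL11 had -0.20 (SE 0.11, adjusted p = 0.136) with 2318 and 2623 in TGFB1 with celastrol and 2734 and 2941 in TGFB1. In celastrol against control they had -0.04 and -0.21, and neither was called. The call of RPL5 ended with a common total, with no trend of variance on mean, and without the first library of TGFB1 with celastrol. RPS6, the substrate of the S6 kinases downstream of MTOR, had 9986 and 11011 in TGFB1 with celastrol, 11492 and 12113 in TGFB1, 9890 and 10684 in celastrol, and 9955 and 10372 in control; its log2 fold changes of -0.17 in TGFB1 with celastrol against TGFB1, 0.22 in TGFB1 against control and 0.02 in celastrol against control did not pass. RPS27A, made as a fusion with ubiquitin, fell by 0.39 with TGFB1 present (SE 0.11, adjusted p = 0.0116), with 1077 and 1380 in TGFB1 with celastrol and 1611 and 1595 in TGFB1. This call ended without the first library of TGFB1 with celastrol, with a common total, or with no trend of variance on mean.

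The rows of paralogues within the list stood at very different levels. RPS27L, a p53 target, had 2513 and 2821 normalized reads in TGFB1 with celastrol, 2782 and 2279 in TGFB1, 2486 and 2406 in celastrol, and 2646 and 2708 in control. RPS27, its ubiquitous partner, had 109.7 and 109 in TGFB1 with celastrol, 142 and 110 in TGFB1, 78.3 and 91.3 in celastrol, and 80.2 and 100.4 in control. Their coding sequences have the same length, and the means per kb were 10239 for RPS27L and 407 for RPS27. These are levels of rows. The pseudogene row of RPS27 averaged 15.7 normalized reads, and whether reads of RPS27 were lost or placed on other rows was not tested. Neither was called in a comparison on the deposited scale. RPL39L had 92.5 and 95.7 in TGFB1 with celastrol, 93.2 and 87.3 in TGFB1, 95.8 and 76.3 in celastrol, and 82.5 and 102 in control, and averaged 593 per kb. RPL39, whose coding sequence has the same length, averaged 23665 per kb. RPS4X, the X-linked form of its small subunit protein, had fold changes of -0.16 in TGFB1 with celastrol against TGFB1, 0.10 in TGFB1 against control and -0.02 in celastrol against control, none called.

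RPL3L, a paralogue of RPL3 known from heart and skeletal muscle (chr16:1943974-1957606, minus strand), was the single member called higher with celastrol. It had 44.9 and 53.9 normalized reads in TGFB1 with celastrol, 1.41 and 0 in TGFB1, 45.6 and 43.6 in celastrol, and 0 and 0 in control. These stand for an estimated 64 and 49, 1 and 0, 59 and 36, and 0 and 0 reads. Against control at the floor of 3 reads per library, celastrol was at least 16.1-fold higher. Since RPL3L entered the tests only through the libraries in which it is high, it had to differ, and its call is given as a description with no weight as a test. RPL3 itself had 13823 and 14406 in TGFB1 with celastrol, 14568 and 16120 in TGFB1, 13995 and 15438 in celastrol, and 13375 and 14460 in control and was not called. The rise stood beside the lower number of rows at 0 in the same libraries, and whether the 2 are linked was not tested.

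For many members the reads were split between the gene and processed pseudogenes, intronless copies of its mRNA. The table held 288 pseudogene rows named after 67 of the members, and they took 26% to 27.5% of the reads of parents and pseudogenes together in each library. In 11 members the pseudogene rows held more than 50% of these reads. RPL7 was the extreme: its row averaged 161 normalized reads and its 16 pseudogene rows 12292, of which RPL7P9 had 8542. The RPL7 row had 95.6 and 137 in TGFB1 with celastrol, 232 and 173 in TGFB1, 131 and 115 in celastrol, and 215 and 188 in control, and had log2 fold changes of -0.80 (SE 0.22, limma adjusted p = 0.0104) and -0.71 (SE 0.22, adjusted p = 0.0213) in the contrasts with and without TGFB1. Summed with its pseudogenes, RPL7 had -0.16 (adjusted p = 0.0226) and -0.03 (adjusted p = 0.611), so the call without TGFB1 ended and the fold shrank, and the fall of the RPL7 row is uncertain. As a row, its call with TGFB1 present ended without the first library of either group compared, and its call without TGFB1 ended without either celastrol library or the first control library.

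RPSA, the small subunit protein also known as a laminin receptor precursor, fell by 0.26 with TGFB1 present as a row (adjusted p = 0.00532) but had -0.07 (adjusted p = 0.341) with its 22 pseudogene rows, which averaged 14071 normalized reads beside 6785 for the gene. RPS27A, with 75.6% of its family reads on pseudogene rows, had -0.21 (adjusted p = 0.0289) in the sum, a smaller fall than the -0.39 of its own row. RPS26 kept its falls when summed with 8 pseudogene rows, at -0.62 (adjusted p = 0.00243) and -0.56 (adjusted p = 0.00493). RPS24, RPL9, RPL37 and RPL31 had under 5% of their reads on pseudogene rows and RPL36A had 14.9%, and all 5 kept both calls in the sums. RPL36A had -2.46 (adjusted p = 9.1e-05) and -2.06 (adjusted p = 0.000337).

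**Figure D4:**
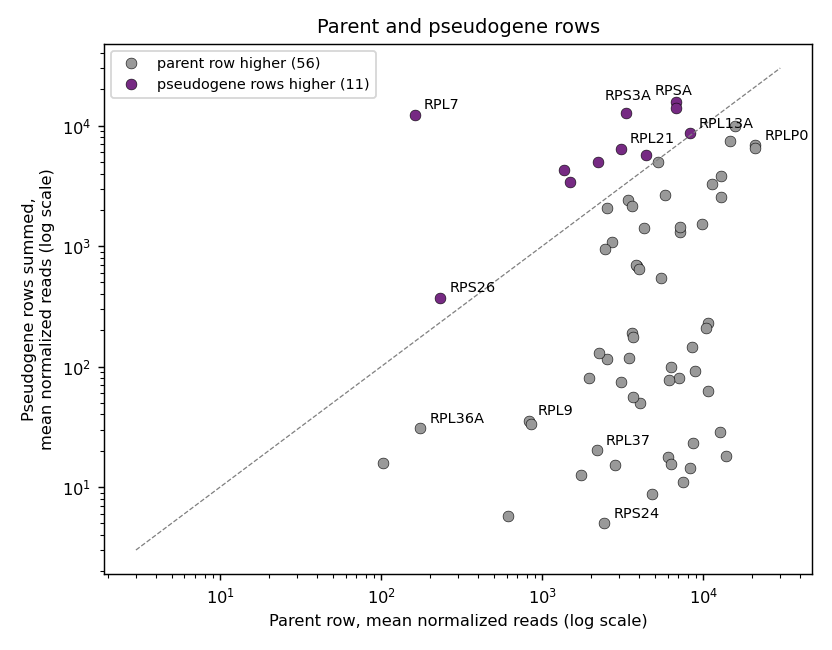
Mean normalized reads of the 67 ribosomal protein genes that have pseudogene rows (horizontal, log scale) against the sum of those rows (vertical, log scale), with the dashed line marking equal values and purple points the families whose pseudogene rows are higher. In 11 families the pseudogene rows are higher, RPL7 (161 against 12292) farthest, while RPS24, RPL9 and RPL37 lie far below the line.

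Other features separated the members little. In 28 members the gene holds a small nucleolar RNA by the GENCODE 29 annotation. These hosts had a median log2 fold change of -0.19 in TGFB1 with celastrol against TGFB1, against -0.20 in the 52 others, and of -0.01 against -0.03 in celastrol against control. The 49 members with a pyrimidine word in a start window had -0.21 and -0.03 in these contrasts, and the 14 without had -0.17 and -0.08. Large and small subunit genes had -0.19 and -0.21 with TGFB1 present, and -0.04 and -0.01 without.

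The genes that make and steer ribosomes were followed through lists taken from general knowledge. Their counts stand beside the shares of all genes tested called lower and higher, which were 25.9% and 37.5% in TGFB1 with celastrol against TGFB1, 21.3% and 33.8% in celastrol against control, and 10.6% and 12.8% in TGFB1 against control. With a common total, 4183 of 22866 genes were called lower and 9809 higher, then 6068 and 7286, and 5399 and 1417, in that order. Other mRNAs known or thought to carry a TOP tract, 29 elongation and initiation factors and related genes, gave medians close to those of the ribosomal proteins: -0.19 in TGFB1 with celastrol against TGFB1 (13 called lower, 0 higher), 0.15 in TGFB1 against control (6 higher, 0 lower) and -0.03 in celastrol against control (2 higher, 2 lower). With a common total the medians were -0.04 (3 lower, 5 higher), -0.08 (0 higher, 5 lower) and -0.11 (1 higher, 8 lower). In TGFB1 against control the calls turned from higher to lower, where 2937 higher and 2427 lower of all genes became 1417 and 5399. HNRNPA1, an RNA-binding protein of splicing, was the lowest, with 5300 and 5771 normalized reads in TGFB1 with celastrol, 8254 and 7931 in TGFB1, 4896 and 5272 in celastrol, and 7710 and 7840 in control (-0.55 and -0.61, limma adjusted p = 9.62e-05 and 6.85e-05).

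Ribosome biogenesis factors, which process ribosomal RNA and assemble the subunits in the nucleolus, had larger median changes than the proteins they assemble, a difference that was not tested. Of 76, 65 were lower and 3 higher in TGFB1 with celastrol against TGFB1 (median -0.73), 54 were higher and 1 lower in TGFB1 against control (median 0.37), and 47 were lower and 9 higher in celastrol against control (median -0.31). With a common total, 60 were lower and 4 higher, 24 higher and 2 lower, and 56 lower and 9 higher in these contrasts. DDX21, a nucleolar RNA helicase, had 5479 and 5006 normalized reads in TGFB1 with celastrol, 11157 and 11175 in TGFB1, 5579 and 5576 in celastrol, and 6092 and 5698 in control. Its TGFB1 libraries were far above the rest (0.92 in TGFB1 against control, adjusted p = 2.28e-05). PPAN, a factor of large subunit maturation, fell by 1.57 with TGFB1 present (adjusted p = 1.57e-05), and NOP58, a core protein of box C/D small nucleolar ribonucleoproteins, went against the list with rises of 0.42 (adjusted p = 0.000324) and 0.84 (adjusted p = 8.98e-06) in the contrasts with and without TGFB1.

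RNA polymerase I, which transcribes ribosomal RNA, had 11 of 15 genes lower and 1 higher in TGFB1 with celastrol against TGFB1, 8 lower and 1 higher in celastrol against control, and 3 higher and 0 lower in TGFB1 against control, which a common total turned to 1 higher and 2 lower. In TGFB1 with celastrol against TGFB1 the common total gave 7 lower and 1 higher. Its subunit gene POLR1G had 276 and 221 normalized reads in TGFB1 with celastrol, 1021 and 991 in TGFB1, 205 and 183 in celastrol, and 281 and 229 in control. Of 24 genes around MTOR, LARP1 and MYC, 10 were lower and 7 higher with TGFB1 present, and 7 lower and 10 higher without; 9 were higher and 0 lower in TGFB1 against control, against 4 and 4 with a common total, which also gave 9 lower and 10 higher with TGFB1 present. MTOR fell by 0.59 with TGFB1 present (adjusted p = 2.55e-05) and by 0.52 without (adjusted p = 6.41e-05), and DDIT4, a stress-induced inhibitor of MTOR signalling, rose by 2.06 with TGFB1 present (adjusted p = 6.85e-07), with 2360 and 2167 in TGFB1 with celastrol and 503 and 580.1 in TGFB1. Chaperones and importers of ribosomal proteins had 6 of 16 lower and 2 higher with TGFB1 present, 3 lower and 2 higher without, and 5 higher and 1 lower in TGFB1 against control. On a common total these counts were 5 lower and 2 higher, 7 lower and 2 higher, and 1 higher and 4 lower. The share lower without TGFB1 was near that of all genes on the deposited scale.

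The mitochondrial ribosome has its own nuclear-encoded proteins. Of 78, 39 were lower and 2 higher in TGFB1 with celastrol against TGFB1 (median -0.29), 38 were lower and 3 higher in celastrol against control (median -0.26), and 7 were higher and 0 lower in TGFB1 against control (median 0.05). Scaled to a common total, 24 were lower and 8 higher (median -0.14), 48 lower and 3 higher (median -0.34), and 1 higher and 12 lower (median -0.18) in these contrasts. MRPL46 had 101 and 121 normalized reads in TGFB1 with celastrol, 217 and 214 in TGFB1, 114 and 109 in celastrol, and 198 and 276 in control, with log2 fold changes of -0.96 (limma adjusted p = 0.00181) and -1.06 (adjusted p = 0.00128) in the contrasts with and without TGFB1. MRPL18 rose by 1.49 and 1.86, with 2750 and 2451 normalized reads in TGFB1 with celastrol, 891 and 954 in TGFB1, 2863 and 3368 in celastrol, and 808 and 900.3 in control. The gap between the medians of both ribosomes was not tested.

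**Figure D5:**
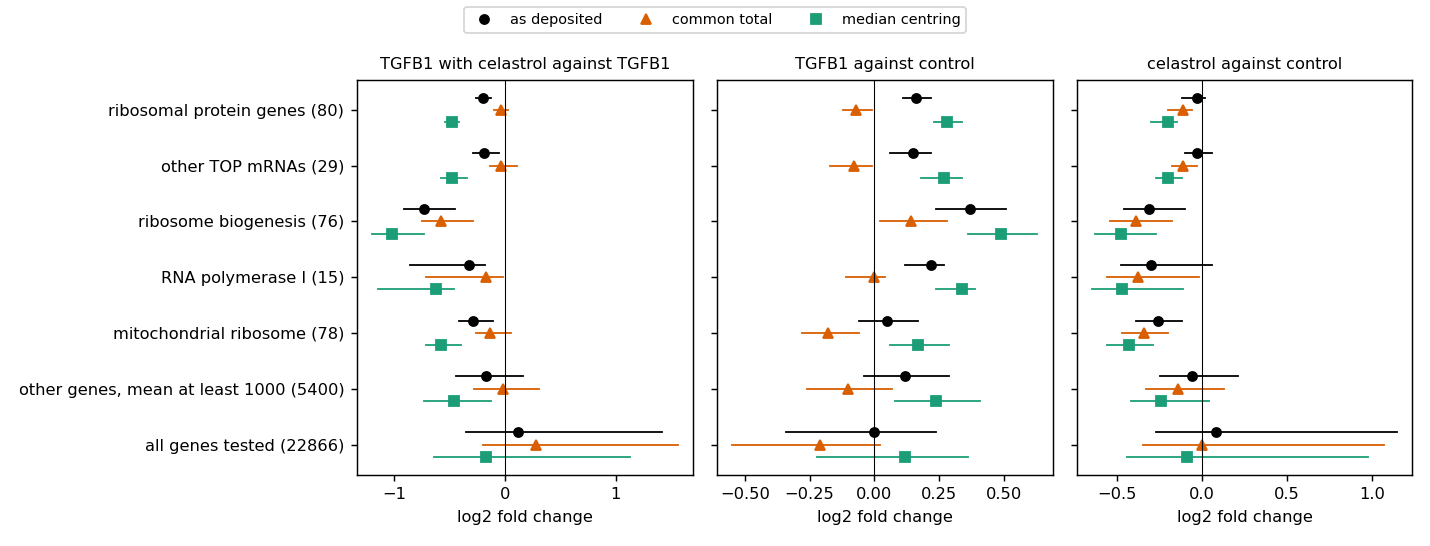
Median (symbol) and quartiles (line) of the log2 fold change in 3 comparisons, one per panel, for the gene lists named at left with the number of genes tested, under the deposited scale (circles), a common total (triangles) and median centring (squares). The ribosomal protein genes have narrow quartiles, and their TGFB1 median changes sign with the scaling (0.16, -0.07 and 0.28), while the ribosome biogenesis list keeps its sign in all 3 comparisons.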

How the data were processed

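Per the labels' protocols, TRIzol was used for extraction and the VAHTS Total RNA-seq kit for library construction. The submitters' processing notes name the build hg38, STAR 2.7.3a, Partek 10.0.22 and DESeq2. The deposited signal holds 1 normalized value per gene and library; each library's median over genes of value divided by geometric mean was 1.0077, a property of size factor scaling. Low values gave whole reads for only 76.1% to 79.0% of entries within 0.02 reads, so no count model was used. Tests covered the 22866 genes that reached 10 normalized reads in 2 or more libraries, using limma 3.58.1 in R 4.3.3, on log2(value + 1), with 1 mean per group, 4 residual degrees of freedom, a trend of variance on mean, and Benjamini-Hochberg adjustment, two-sided. The fit was tested on simulated data. The common total scales all libraries to 1 sum; median centring subtracts each library's median log2 value over genes tested. Coding lengths and small nucleolar RNAs came from GENCODE 29 (hg38), whose gene coordinates equal the table's for 26 of 80 members; start windows came from RefSeq (GRCh38.p14). Intervals are 95%; counting intervals and floors cover counting error only.

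Members and lists were chosen with earlier results of these data known. Named members are the 5 highest and 5 lowest per comparison and by mean level, common reference genes, paralogues and members with known extra roles; further called members (RPL22, RPL31, RPL37, RPL38, RPL27, RPL17, RPL27A and others) were named after their values were seen. From other lists, the 2 highest and 2 lowest per comparison could be named. A few genes of these lists are not reported here. Alternatives were other pseudocounts (0.1 and 10), no filter, both scalings, no trend, a replicate block, only the compared libraries, each library left out, and, added after seeing the data, parent and pseudogene rows summed and the median without RPL3L.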

Additional observations from a re-analysis of the deposited data

Results flagged for a closer look

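The difference between the celastrol effects with and without TGFB1 was tested as an interaction in limma over all 22866 genes. No ribosomal protein gene passed without a replicate block, but genes of the other lists did. Over all genes 4.36% were called higher and 6.89% lower. With a common total 2474 of the 22866 genes were called higher and 801 lower. A negative difference means that the celastrol effect was lower, on the log2 scale, with TGFB1 present than without it. In the ribosome biogenesis list 37 of 76 genes passed, each with a negative difference; with a common total 13 were negative and 1 positive. Among them NOP16, a nucleolar protein, had a difference of -1.06 (adjusted p = 0.0014) and DDX21 one of -1.01 (adjusted p = 0.000265). NOP16 had 346 and 379 normalized reads in TGFB1 with celastrol, 531 and 551 in TGFB1, 388 and 391 in celastrol, and 273 and 286 in control. In the RNA polymerase I list 1 of 15 genes passed, POLR1G, with a difference of -1.63 (adjusted p = 0.0016). In the list of chaperones and importers 3 of 16 genes passed, among them the importin gene IPO7 (-0.82) and GRWD1 (-0.51). In the list around MTOR and LARP1 5 of 24 genes passed, among them the growth regulator MYC with a difference of -1.05 (adjusted p = 0.00166). MYC had 3871 and 4401 in TGFB1 with celastrol, 2453 and 2935 in TGFB1, 3907 and 4121 in celastrol, and 1259 and 1251 in control. In the mitochondrial ribosome list 2 of 78 genes passed, among them MRPS6 (-0.65). The differences that passed in these lists were negative. The counts of the RNA polymerase I and mitochondrial lists were at or below the share of all genes. With a common total 2 were positive and 1 negative in the RNA polymerase I list and in that of chaperones, 2 positive and 3 negative in that around MTOR, and 4 positive and 0 negative in the mitochondrial one. The interaction uses the libraries of all 4 groups.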

How the results depend on the processing

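The members' median stayed negative in both celastrol contrasts under both scalings, while the counts moved. In celastrol against control it turned positive when some libraries were left out. The deposited median of -0.03 there, and that of -0.04 with TGFB1 present and a common total, lay within the pooled standard deviation of 0.072 between replicates. In TGFB1 with celastrol against TGFB1, 28 members called lower became 11 with a common total, 75 with median centring and 16 with no trend of variance on mean, and ran from 13 to 36 when 1 library was left out; members called higher ran from 1 to 2 there, and the median was -0.04 with a common total and -0.48 with centring. In celastrol against control, 7 called lower became 14 and 35 under these scalings and ran from 5 to 9 when 1 library was left out; the median was -0.11 and -0.20, and ran from -0.11 to 0.02 over the libraries left out. In TGFB1 against control, 7 called higher became 0 with a common total, 42 with centring, 0 with no trend and 1 with only the libraries compared, and ran from 1 to 8 when 1 library was left out; 1 was lower with a common total, and the median was -0.07 and 0.28. The median of TGFB1 with celastrol against celastrol ran from -0.05 to 0.08 when 1 library was left out. The median interaction was 0.08 with a common total and -0.28 with centring, which called 2 lower; leaving out 1 library called 0 to 1. Over all genes in TGFB1 against control, 2937 higher and 2427 lower became 1417 and 5399 with a common total, 4778 higher with centring, 1836 higher with no trend, and 1064 and 620 with only the libraries compared; centring called 9094 lower in TGFB1 with celastrol against TGFB1 and 7470 lower in celastrol against control. The interaction called 997 genes higher and 1576 lower, which became 2474 and 801 with a common total, 577 and 668 with no trend, and 2748 lower with centring. Without the 100 highest other genes the shares were 1.93% in TGFB1 with celastrol, 2% in TGFB1, 1.93% in celastrol and 2.05% in control. Of the called members, 11 of 29, 6 of 8 and 0 of 7 passed under all 17 alternatives in TGFB1 with celastrol against TGFB1, celastrol against control and TGFB1 against control. Both celastrol counts include RPL3L, whose call has no weight as a test. The causes of these shifts were not tested. Same-numbered libraries deviated together only weakly (r from 0.050 to 0.082 over 6 pairs of groups), so the numbers were not taken as pairs. The members did shift together. The second library was higher for 68 members in TGFB1 with celastrol, 51 in TGFB1, 67 in celastrol and 73 in control. With a replicate block 53 members were called lower in TGFB1 with celastrol against TGFB1 and 13 lower in celastrol against control. The block also called 27 higher in TGFB1 against control and 4 lower in the interaction. The shares of all genes called with a block are not given here. These counts are therefore no result about the members in particular. Counts without a block leave this shared shift in the spread. With 2 libraries a group, 95% intervals had a median half-width of 0.20, so smaller changes of single members were mostly not detectable.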
